A study of Homo sapiens with 5 samples.

Results

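Clusters of Mediator binding sites were examined in MIA PaCa-2 cells, a long-established line from a human pancreatic carcinoma. Each cluster was built from ChIP-seq peaks of the Mediator subunits MED17 and MED30. Overlapping peaks of both lists were merged, merged regions in stretches of over 2 Mb without any RefSeq gene were dropped, and regions separated by gaps of at most 12500 bp were stitched into a group. A group was kept if it held at least 3 merged regions, of which at least 1 lay over 1 kb from every start and end of a protein-coding gene. Such a region is called distal, and every other region is called a gene boundary region. Only the start and end of the whole gene record count, so a distal region can lie at a transcript start inside a gene. Distal regions were not sorted by such starts, and some did lie at one. The INF2 promoter, for example, lay under a region with a MYC fold of 4.59, in a cluster whose 3 regions all counted as distal. How many distal regions lay at such a start was not counted. The rule kept 338 clusters out of 11171 stitched groups, or 3.03%, and they held 1260 of 13846 merged regions, or 9.10%. Of these regions, 774 were distal and 486 were gene boundary regions. The clusters were thus chosen by the presence, position and spacing of Mediator peaks. The number of regions, their width and their Mediator values are therefore given as descriptions with no test.

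MED17 and MED30 were mapped in the parental cells under normal culture after 20 min in 2 mM disuccinimidyl glutarate followed by 10 min in 1% formaldehyde. MYC was mapped in the same parental line after the formaldehyde step alone, so fixation differs wherever a Mediator value stands beside a MYC value. MYC was also mapped in a MIA PaCa-2 line with a tetracycline-inducible hairpin against MED30 (teton shMED30), after 3 days of doxycycline and without it, again with formaldehyde alone. Each of the 5 groups is 1 library, so differences could not be checked against replicates and p-values are left out. Ranges in parentheses after a share are exact (Clopper-Pearson) 95% intervals. They reflect counting error alone and take regions as independent, although regions of the same cluster are not.

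Mediator is a large protein complex that carries signals from transcription factors bound at enhancers and promoters to RNA polymerase II. Super-enhancers are groups of closely spaced enhancers with unusually high loads of Mediator or acetylated histone H3 lysine 27, often found beside genes that define a cell's identity, and they are usually ranked by total signal after stitching. MYC is a basic helix-loop-helix leucine zipper factor that binds DNA together with its partner MAX, preferably at the E-box sequence CACGTG.

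The lists hold peaks and no read signal and no histone mark, and the rule ranks nothing by signal. The sites are therefore called Mediator peak clusters here, since the name super-enhancer could not be checked. Several measured features bear on that name. Gene boundary regions occurred in 247 of the 338 clusters, and 74 clusters overlapped 3 or more protein-coding genes. The median fold enrichment of MED30, the ratio of the summit pileup to the local background as the authors deposited it, was 4.18 in cluster regions and 4.85 in regions outside clusters, while the median MED30 summit pileup was higher in clusters, at 26 fragments against 20, over a local background that was also higher.

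The sequences below come from the RefSeq promoter table (GRCh38.p14, 250 bases before to 50 bases after the start of a transcript) and the RefSeq miRNA table of the same build. They are shown because each promoter lies under a cluster region that is described further on, and because the promoters differ in the motifs they hold. Capitals in promoters mark the E-box CACGTG, the cyclic AMP response element TGACGTCA and the AP-1 site TGANTCA, searched on both strands. NME1 and TRMT61A had the highest MYC fold among cluster promoters whose E-box lay inside both the Mediator region and a MYC peak. DUSP1 held an E-box and a TGACGTCA element, and JUND and EPHA2 held TGACGTCA.
NME1 promoter, chr17:51153309-51153608, plus strand: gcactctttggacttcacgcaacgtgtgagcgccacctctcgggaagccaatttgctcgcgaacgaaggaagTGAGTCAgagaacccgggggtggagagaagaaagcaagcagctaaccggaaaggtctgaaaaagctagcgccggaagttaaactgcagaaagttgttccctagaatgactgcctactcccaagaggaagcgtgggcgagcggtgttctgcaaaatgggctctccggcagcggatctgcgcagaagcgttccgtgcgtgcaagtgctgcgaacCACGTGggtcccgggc
TRMT61A promoter, chr14:103528946-103529245, plus strand: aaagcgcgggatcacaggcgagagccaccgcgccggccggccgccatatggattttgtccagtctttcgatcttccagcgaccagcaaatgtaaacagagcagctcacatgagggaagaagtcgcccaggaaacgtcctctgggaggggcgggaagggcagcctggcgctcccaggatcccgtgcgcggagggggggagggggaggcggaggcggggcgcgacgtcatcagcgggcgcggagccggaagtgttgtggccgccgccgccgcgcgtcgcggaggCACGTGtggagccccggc
DUSP1 promoter, chr5:172771146-172771445, minus strand: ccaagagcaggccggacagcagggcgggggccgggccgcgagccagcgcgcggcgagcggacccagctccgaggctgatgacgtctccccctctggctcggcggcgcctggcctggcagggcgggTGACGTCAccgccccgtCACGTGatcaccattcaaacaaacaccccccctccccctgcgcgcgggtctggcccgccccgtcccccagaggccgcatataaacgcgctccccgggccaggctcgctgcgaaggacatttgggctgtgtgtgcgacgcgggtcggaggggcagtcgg
JUND promoter, chr19:18281573-18281872, minus strand: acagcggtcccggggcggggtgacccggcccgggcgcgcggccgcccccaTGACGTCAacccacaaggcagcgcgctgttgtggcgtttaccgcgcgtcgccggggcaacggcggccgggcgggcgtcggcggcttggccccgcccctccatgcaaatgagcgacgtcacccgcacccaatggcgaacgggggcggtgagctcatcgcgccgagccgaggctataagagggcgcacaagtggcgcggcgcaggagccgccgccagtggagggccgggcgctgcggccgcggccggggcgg
EPHA2 promoter, chr1:16156020-16156319, minus strand: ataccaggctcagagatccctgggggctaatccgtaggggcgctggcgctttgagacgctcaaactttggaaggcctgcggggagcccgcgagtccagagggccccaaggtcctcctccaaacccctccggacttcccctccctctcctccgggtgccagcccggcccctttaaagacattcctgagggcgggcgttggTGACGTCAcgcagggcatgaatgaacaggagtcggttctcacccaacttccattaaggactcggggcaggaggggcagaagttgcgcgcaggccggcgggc

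Among miRNA genes inside clusters, 4 mature sequences are shown with the seed, bases 2 to 8, in capitals. They belong to genes that recur below, and miR-181c-5p and miR-181d-5p share the seed ACAUUCA.
hsa-miR-21-5p, chr17:59841273-59841294, plus strand: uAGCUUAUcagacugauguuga
hsa-miR-181c-5p, chr19:13874725-13874746, plus strand: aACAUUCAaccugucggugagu
hsa-miR-181d-5p, chr19:13874910-13874932, plus strand: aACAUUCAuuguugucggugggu
hsa-miR-210-3p, chr11:568112-568133, minus strand: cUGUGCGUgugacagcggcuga

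The clusters were short. Their median span was 15.8 kb, from 2.05 kb to 67.5 kb, and a median of 2.80 kb of that span lay under merged regions. Of the 338 clusters, 215 held 3 regions, 63 held 4, 26 held 5 and 34 held 6 or more. Distal regions numbered 1 in 117 clusters, 2 in 97 and 3 or more in 124, and 91 clusters consisted of distal regions alone. A protein-coding gene was overlapped by 280 clusters, and a lncRNA gene by 153. Of single cluster regions, 58.3% overlapped a protein-coding gene, against 80.7% of regions outside clusters. Among distal regions these shares were 39.3% and 48.2%. A lncRNA gene start or end lay within 1 kb of 17.3% of cluster regions and 21.6% of the others. Among distal regions it did so for 16.3% and 19.2%.

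The longest cluster spanned 67.5 kb around AURKB, the mitotic kinase of the chromosomal passenger complex, and VAMP2, a synaptic vesicle fusion protein (chr17:8155988-8223466). It held 10 regions, of which 5 were distal and 5 had a MYC peak. Its highest MED30 fold was 13.7, at a gene boundary region with a MED17 fold of 7.27 and no MYC peak. The cluster with the most regions, 16, lay 29.5 kb from CWH43 (chr4:49091555-49155015), a gene for lipid remodelling of membrane anchors, and is described with the clusters near gene-free stretches. At TPRG1, 8 distal regions spanned 36.9 kb (chr3:189268098-189305033), 6 of them in the MED30 list alone. MYC had a peak at 1 of the 8, with a fold of 4.22.

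**Figure D1:**
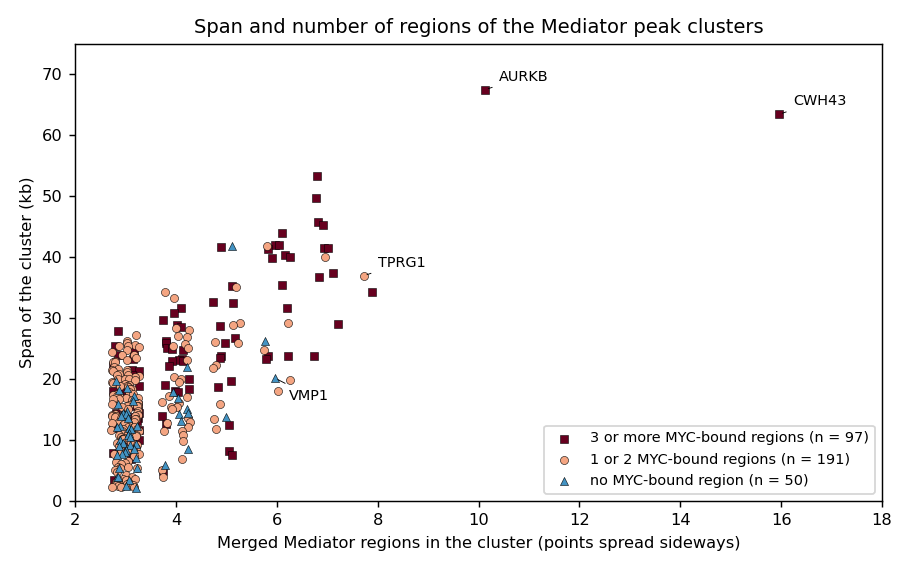
Span in kb against the number of merged Mediator regions for each of the 338 clusters, coloured by how many regions had a parental MYC peak. Points are spread sideways so that they do not hide each other; most clusters hold 3 regions, 97 had 3 or more MYC-bound regions and 50 had none.

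Near the limits of the rule, counts changed gradually. There were 390 gaps of 10000 to 12500 bp, which were stitched, and 339 gaps of 12500 to 15000 bp, which were not. Groups of 3 regions numbered 303 and groups of 2 regions numbered 1456. In 34 clusters the only distal region lay 1 to 2 kb from a gene boundary, and 33 groups were left out whose farthest region lay 0.5 to 1 kb from one.

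Cluster regions were composed differently from the other regions. Both subunits had a peak in 48.8% of cluster regions and in 62.3% of regions outside clusters. The rule asks for distal regions, and among distal regions alone these shares were 42.2% in clusters and 43.4% outside, while at gene boundaries they were 59.3% and 70.9%. MED30 alone had one in 28.3% of cluster regions and 15.04% outside, and MED17 alone in 22.9% and 22.7%. Pileups were recovered from the deposited fold and p. The local background under the MED30 summits was 5.42 fragments in cluster regions and 3.41 outside. For MED17 the pileup was 26 in cluster regions against 23, and the local background 5.21 against 3.69. In clusters a higher pileup thus came with a higher local background and a lower fold for both subunits, since the MED17 fold was 4.18 in cluster regions and 5.04 outside. Whether this background moved the choice of clusters was not tested.

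MYC peaks were not used to choose the clusters. A MYC peak in the parental cells overlapped 624 of the 1260 cluster regions, or 49.5% (46.7 to 52.3%), against 61.8% (60.9 to 62.6%) of regions outside clusters and 60.6% of all merged regions. Cluster regions held 4.53% of the parental MYC peaks on chromosomes 1 to 22 and X, and the other Mediator regions held 57.8%.

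Distal regions made up 774 of the 1260 cluster regions and 3944 of the 12586 others, so each kind was also compared on its own. At gene boundaries in clusters, 278 of 486 had a MYC peak, or 57.2% (52.7 to 61.6%), against 69.5% (68.5 to 70.4%) outside clusters and 68.8% of all gene boundary regions. The intervals did not overlap. Groups of 3 or more regions without a distal one were close to the clusters at 57.3%, groups of 2 had 62.9%, and regions standing alone had 72.1%. Where both subunits had a peak at a gene boundary, MYC was found at 70.8% of cluster regions (65.2 to 76.0%) and 79.3% of the others (78.3 to 80.3%). These regions were also split by RefSeq start sites, with chromosome 8 left out. Those within 1 kb of one had a MYC peak in 60.4% of cluster cases (55.2 to 65.4%) and 70.6% of the others (69.5 to 71.6%). Those with no listed start within 1 kb had one in 43.9% of 107 cluster cases (34.3 to 53.9%) and 64.2% of the 1333 others (61.6 to 66.8%).

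At distal regions the shares were alike before places were separated. MYC was found at 346 of 774 distal cluster regions, or 44.7% (41.2 to 48.3%), against 44.9% (43.3 to 46.5%) of those outside clusters and 44.9% of all distal regions. Places near and far from gene-free stretches differed, however. Within 3 Mb of a gene-free stretch, 66 of 74 distal cluster regions had a MYC peak, or 89.2% (79.8 to 95.2%), against 56.0% (49.5 to 62.4%) of those outside clusters. Farther away the shares were 40.0% (36.3 to 43.7%) in clusters and 44.2% (42.6 to 45.8%) outside. For distal regions with both subunits, far from gene-free stretches, they were 58.5% (52.5 to 64.2%) and 67.6% (65.2 to 69.9%). Over all places, distal regions with MED30 alone had a MYC peak in 30.8% of cluster cases (25.5 to 36.5%) and 24.0% of the others (21.6 to 26.4%), and those with MED17 alone in 30.4% and 31.8%.

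**Figure D2:**
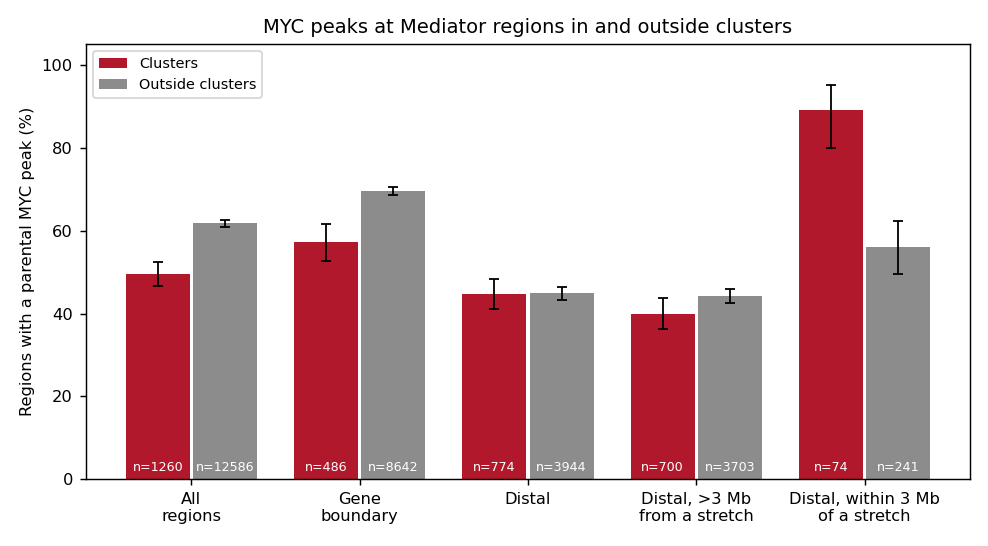
Share of merged Mediator regions with a parental MYC peak, in clusters (left bar of each pair) and outside clusters (right bar), with exact 95% counting intervals and the number of regions in each bar. The cluster bar is lower at gene boundaries, at 57.2% against 69.5%, and higher within 3 Mb of a gene-free stretch, at 89.2% against 56.0%.

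At distal regions the comparison depended on which measure of Mediator strength was matched. Distal regions with a MED30 peak, all over 3 Mb from a gene-free stretch, were split into 3 bins by MED30 summit pileup. The bins were cut at 16 and 24 fragments. MYC was found at 24.0%, 35.1% and 52.7% of cluster regions from the lowest bin to the highest, against 32.8%, 51.5% and 67.1% of regions outside clusters. Split by MED30 fold instead, at 3.95 and 4.91, the shares were 28.4%, 56.1% and 60.7% in clusters. Outside clusters they were 31.1%, 46.9% and 65.8%. The middle bin was higher in clusters, with intervals that overlapped (47.5 to 64.5% against 43.7 to 50.1%). Intervals overlapped in every fold bin and in the lowest pileup bin, but not in the middle and highest pileup bins. Gene boundary regions over 3 Mb from a stretch were split likewise, at folds of 4.52 and 5.58 and pileups of 18 and 26. Their share was lower in clusters in every bin. By fold it was 60.2%, 66.3% and 77.0% against 68.0%, 76.7% and 82.9%, and intervals overlapped in every bin. By pileup it was 53.2%, 63.6% and 71.1% against 65.0%, 79.8% and 85.3%, and intervals overlapped in the lowest bin alone.

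Counted per cluster, 288 of 338 had at least 1 region with a MYC peak, or 85.2% (81.0 to 88.8%), and 66.8% of all stitched groups did. The share was 91.8% (85.4 to 96.0%) for groups of 3 or more regions without a distal one, 76.9% (74.7 to 79.1%) for groups of 2 and 64.2% (63.2 to 65.2%) for regions standing alone. A group with more regions has more chances of holding a MYC peak. MYC was found at 1 region in 98 clusters, at 2 in 93 and at 3 or more in 97. Every region had a MYC peak in 47 clusters, and in 72 clusters MYC was found at gene boundary regions but at no distal region.

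Within clusters, MYC was found most often where Mediator was highest. The region with the highest summit pileup of either subunit had a MYC peak in 216 of 338 clusters, or 63.9% (58.5 to 69.0%). The share was 52.4% (46.9 to 57.8%) for the 2nd region, 37.6% (32.4 to 43.0%) for the 3rd and 41.6% (35.3 to 48.0%) for the regions from the 4th on. Distal regions showed it as well, with 59.8% (52.0 to 67.2%) where the distal region was the highest of its cluster and 40.2% (36.3 to 44.2%) where it was not. Over 3 Mb from gene-free stretches these values were 56.8% and 35.2%. The pileup could not be recovered for 3 regions, which are left out here.

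**Figure D3:**
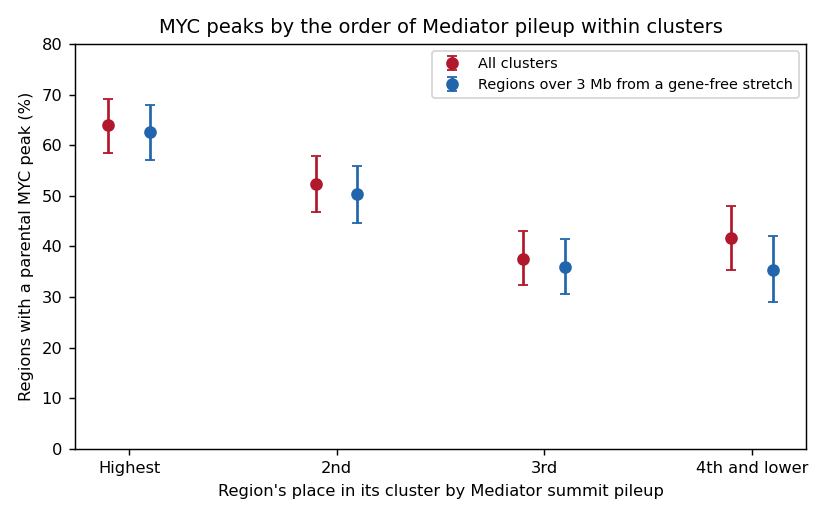
Share of cluster regions with a parental MYC peak by the region's place in its cluster, ordered by Mediator summit pileup, with exact 95% counting intervals. The share is 63.9% for the highest region and 37.6% for the 3rd over all clusters, and the values over 3 Mb from gene-free stretches (right point of each pair) follow the same order through the 3rd region.

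Distal regions with a MYC peak were also wider and more often bound by both subunits, in clusters and outside them. In clusters their median width was 771 bp and 60.4% had both subunits. Distal cluster regions without a MYC peak had a median width of 545 bp and 27.6% had both. Regions in the MED30 list alone made up 25.4% of the distal cluster regions with a MYC peak and 46.3% of those without. Outside clusters the median width was 875 bp with a MYC peak and 501 bp without, and 65.4% and 25.4% had both subunits. Regions with MED30 alone made up 16.8% and 43.5% there. The summits of MYC and MED30 lay a median of 138 bp apart at distal cluster regions and 157 bp apart at distal regions outside clusters. At gene boundaries the distance was 188 bp in clusters and 164 bp outside.

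MYC peaks in cluster regions were of moderate strength. The 626 peaks had a median fold of 4.26, against 4.58 for the 7990 MYC peaks at Mediator regions outside clusters. Their median summit pileup was 26 fragments against 23, over a local background of 5.21 against 4.34. As for Mediator, a higher pileup and a lower fold occurred together with a higher local background, and the part of that background in the MYC shares was not tested.

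The E-box was found more often in promoter windows with a MYC peak, in clusters and outside them. A window was in the table for 15812 protein-coding genes, or 82.1% of those outside chromosome 8, and in 223 clusters a region lay over such a window. The E-box CACGTG was found in 37 of 328 cluster windows under a region with a MYC peak, or 11.3% (8.07 to 15.2%), and in 7 of 161 under a region without one, or 4.35% (1.77 to 8.75%), with intervals that overlapped. Outside clusters the shares were 12.49% with a MYC peak and 5.53% without, and 8.34% of all 22132 windows held the motif. In 28 cluster windows the E-box lay inside both the Mediator region and a MYC peak, among them NME1, TRMT61A and DUSP1 as printed above. Windows were counted per listed entry, so the same bases can count more than once, as for NME1 and NME1-NME2. TGACGTCA was found in 5.18% of cluster windows with a MYC peak (3.05 to 8.17%), in 1.86% without, and in 2.26% of all windows. Outside clusters it was found in 3.28% of windows with a MYC peak and in 3.70% without. TGANTCA was found in 4.88% and 4.35% of cluster windows with and without a MYC peak, in 3.61% and 4.04% of those outside clusters, and in 6.15% of all windows. No match says only that these letters are not in the window of 300 bases.

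NME1 encodes a nucleoside diphosphate kinase. Its promoter region (chr17:51153219-51154277) had a MED17 fold of 4.17, a MED30 fold of 3.70 and a MYC fold of 12.3. At TRMT61A, the catalytic subunit of a tRNA methyltransferase, the promoter region (chr14:103528533-103529759) had folds of 4.18, 6.47 and 10.5 for MED17, MED30 and MYC.

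Protein-coding genes overlapped by a cluster, or nearest to a cluster that overlapped none, numbered 592 of 19974, or 2.96%. Gene lists for transcription factors, signalling and cell states were set beside that share. The AP-1 and related bZIP factors had 5 of 13 members at a cluster, and the MAPK targets and feedback genes had 5 of 18. The actin cytoskeleton and adhesion list had 3 of 20, the mesenchymal state list and the growth factor receptors had 2 of 16 and 2 of 14, and the TGF-beta and SMAD list had 2 of 15. The survival, stress response, classical pancreatic cancer, fibroblast, and Mediator and coactivator lists had 1 member each. None of the genes listed for the YAP and TEAD pathway, NF-kappaB and cytokines, the MYC network, cell cycle drivers, basal pancreatic cancer, acinar, islet and immune cells or ribosomal proteins was at a cluster. The lists hold only some members of each family or pathway. Among genes outside the lists, chosen here after the clusters were seen, RPL10, RPL23A, RPL35, RPS15, RPS27, NFKBIE and the Mediator subunit gene MED29 were at clusters. The MYC gene itself is in the MYC network list and was not at a cluster. With a window of 50 kb around each cluster, which took in 1185 genes or 5.93%, the AP-1 and MAPK lists stayed at 5 members each. A wider window mostly adds members, so an unchanged count tests little. The ribosomal protein list rose from 0 to 3, survival from 1 to 3, NF-kappaB from 0 to 2 and basal from 0 to 1. The mesenchymal, receptor and TGF-beta lists rose from 2 to 3 and the actin list from 3 to 4. The fibroblast list fell from 1 to 0, and every other list kept its count. These lists are short, and 1 gene more or fewer moves a share by several percentage points.

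**Figure D4:**
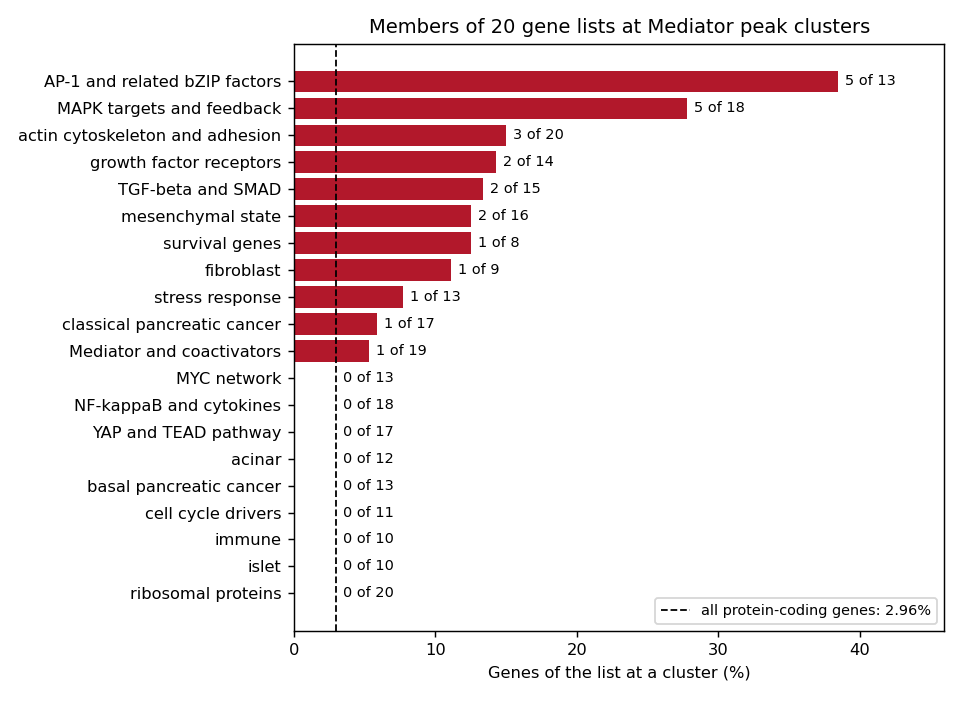
Share of each of 20 gene lists that was overlapped by or nearest to a Mediator peak cluster, with the counts beside the bars. The dashed line is the share over all protein-coding genes, 2.96%; the AP-1 list had 5 of 13 members at a cluster and the MAPK list 5 of 18.

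AP-1 factors are dimers of FOS and JUN family proteins that are induced by growth factors and stress. FOSL1, a FOS family member, had 6 regions over 31.6 kb (chr11:65888759-65920381), of which 2 were distal and 3 had a MYC peak. All 3 MYC peaks lay at gene boundary regions bound by both subunits, with MYC folds of 6.34, 5.88 and 4.99. The boundary can be that of a neighbouring gene in the cluster. The 2 distal regions, both in the MED30 list alone, had none. JUNB lay in a cluster of 6 regions with HOOK2 and PRDX2 (chr19:12778267-12801996), 3 of them with a MYC peak. There the 2 distal regions had MYC folds of 4.30 and 5.02, and a gene boundary region had 4.50. FOSB shared a cluster of 6 regions over 42.0 kb with RTN2, PPM1N and VASP (chr19:45467451-45509420). All 6 had both subunits, and 3 had a MYC peak. MYC was thus found at gene boundary regions alone in the FOSL1 cluster, and at both kinds of region in the JUNB cluster.

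JUND, a JUN family member, had 5 regions over 25.8 kb (chr19:18279685-18305515), and only its promoter region had a MYC peak. That region, shown above with its TGACGTCA element, had a MED30 fold of 8.60 at a pileup of 99 fragments, a MED17 fold of 4.22 and a MYC fold of 3.75. MAFG, a small MAF protein and the list's remaining gene, was named after its values were seen. Its cluster held 5 regions (chr17:81910970-81937685), and MYC had folds of 9.33, 5.15 and 3.38 at 3 of them. Taking the highest MYC fold at any region of a cluster, the MAFG cluster was highest and the JUND cluster lowest of these 5. Such a region can lie at another gene of the cluster, so the order is one of clusters and not of bZIP promoters.

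EPHA2, an ephrin receptor tyrosine kinase and a target of the MAPK pathway, had 4 regions over 27.0 kb (chr1:16155264-16182220). Its promoter region had a MED17 fold of 4.39 and a MED30 fold of 4.69 without a MYC peak. MYC was found at a distal region 11346 bp from the nearest gene boundary, at a fold of 7.76, where MED17 had 5.54 and MED30 5.89. DUSP1, a phosphatase that inactivates MAP kinases, showed the opposite placing. Of its 3 regions (chr5:172758235-172771611), the promoter region had a MYC peak at a fold of 3.34, with 5.39 for MED17 and 6.57 for MED30. A distal region 2396 bp from the nearest gene boundary had the higher MED30 fold, 9.51, without a MYC peak.

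PHLDA1, a pleckstrin homology domain protein induced by growth factors, had 4 regions over 14.5 kb (chr12:76017955-76032434) and no MYC peak at any of them. SPRED3 shared a cluster of 3 regions with PSMD8, 2 of them with a MYC peak. SPRY4, an inhibitor of receptor tyrosine kinase signalling that was named after its values were seen, was at 2 clusters of 3 regions each. The cluster with gene boundary regions had no MYC peak, and the cluster of distal regions alone had 1, at a fold of 4.21. AXL, a receptor tyrosine kinase, had 3 regions over 8.01 kb (chr19:41218514-41226521), none with a MYC peak. Clusters at genes of the MAPK and receptor lists thus held from no MYC-bound region at PHLDA1 and AXL to 2 at SPRED3.

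FLNA, the actin cross-linker filamin A, shared a cluster of 6 regions with EMD, RPL10 and DNASE1L1 (chrX:154370759-154412116). Its highest MYC fold was 8.49, at the region where MED30 was also highest, at 8.47. CAV1, a component of caveolae, had 4 regions in a cluster with CAV2, and the only MYC peak, at a fold of 6.78, was at the distal region. LMNA, which encodes A-type lamins, had 3 regions that counted as distal, all with both subunits (chr1:156104044-156115564). Of these, 1 had a MYC peak at a fold of 4.06. Whether any of them lay at a transcript start inside the gene was not checked.

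ID1 and ID3 encode inhibitors of basic helix-loop-helix factors and are targets of SMAD signalling. ID1 had 6 regions over 23.8 kb (chr20:31587556-31611349), with MED17 and MED30 pileups of 65 and 85 fragments at a gene boundary region and a MYC fold of 4.11 there. ID3 had 3 regions over 4.98 kb and 1 MYC peak, at its distal region, with a fold of 5.39. Among the remaining lists, CFLAR, an inhibitor of caspase 8, and EHF, an epithelial ETS factor, each had 1 MYC-bound region of 3. SESN2 and MED24 lay in clusters with 1 MYC-bound region each, and the cluster nearest to COL1A2 had none. The clusters named for EHF and COL1A2 held distal regions alone, and the regions of the COL1A2 cluster lay 93233 bp or more from any protein-coding gene boundary.

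**Figure D5:**
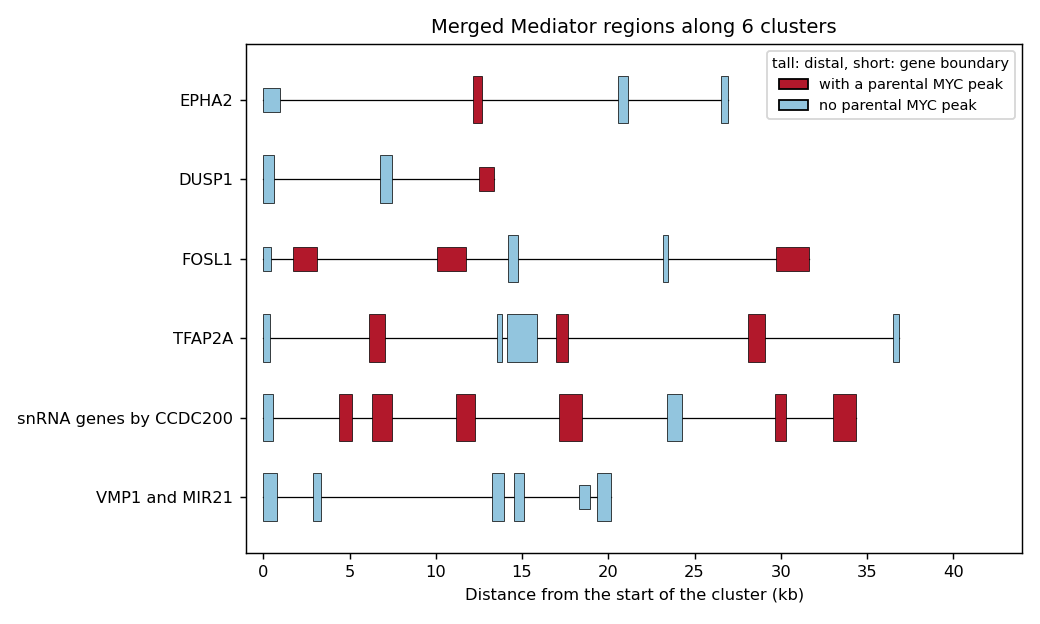
Merged Mediator regions along 6 clusters, plotted by distance in kb from the start of each cluster, with tall boxes for distal and short boxes for gene boundary regions. Red boxes had a parental MYC peak: the MYC peaks of the FOSL1 cluster lie at gene boundary regions, that of the EPHA2 cluster at a distal region, and the VMP1 and MIR21 cluster has none.

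Clusters of distal regions alone numbered 91, and 79 of these were not beside a gene-free stretch. TFAP2A, the AP-2 alpha transcription factor, was chosen for description after its values were seen. It had 7 regions that counted as distal over 36.8 kb (chr6:10397997-10434818), 3 of them with both subunits. These were not checked against transcript starts inside the gene either. MED30 had its highest fold, 5.98, at a region where MED17 had 4.14 and MYC 4.11, and MYC was also found at 2 other regions, at folds of 3.58 and 3.91. The widest region, 1735 bp, had pileups of 43 and 45 fragments for MED17 and MED30 and no MYC peak.

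MIR21, the gene of miR-21-5p printed above, lay in a cluster at the end of VMP1, which encodes an autophagy membrane protein (chr17:59824407-59844577). The 6 regions lay on both sides of MIR21, the nearest at 1.75 kb before and 1.38 kb after it, and none had a MYC peak. MED30 folds ranged up to 3.57 and MED17 folds up to 3.46. The cluster named for NANOS3 held the MIR181C and MIR181D genes on chromosome 19, whose printed 5p sequences share a seed, and 1 of its 7 regions had a MYC peak. It was described after its values were seen. MIR210, the gene of miR-210-3p, lay in a cluster of 4 regions at PHRF1 with 1 MYC-bound region. In all, 29 miRNA genes with a sequence in the table lay in clusters, giving 42 mature miRNAs, of which 10 lay under a region.

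No MYC peak overlapped any region of 50 clusters. Their median span was 12.1 kb, against 17.1 kb for the 288 with a MYC peak, and both had a median of 3 regions. All regions were distal in 25 of the 50 clusters without MYC and in 66 of the 288 with it. Regions in the MED30 list alone made up 49.1% of the regions in clusters without MYC and 25.02% in those with it. The cluster of VMP1 and MIR21 was one of the 50, and another with 6 regions lay near BCAS1, a gene amplified in some breast cancers (chr20:53915410-53941602). Its regions were all distal, with MED30 folds of up to 4.36. FAM9C and CDH9 each named a cluster of 5 distal regions. That of CDH9 lay 658 kb from the gene, with 4 regions in the MED30 list alone and a MED30 fold of up to 5.73. SPATA2 and RNF114 shared a cluster of 4 regions with a MED17 fold of 5.97 and no MYC peak at a region, although 1 lay between its regions. In 8 of the 50 clusters a MYC peak lay within the span but outside every region.

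A tRNA, snRNA or snoRNA gene lay in 36 of the 338 clusters. Of 23 snRNA genes in clusters all 23 lay under a region, and 16 under one with a MYC peak. Of 51 tRNA genes in clusters 20 lay under a region, and 11 under one with a MYC peak, and of 15 snoRNA genes 4 lay under a region and 2 under one with a MYC peak. Of distal regions within 1 kb of a gene of these 3 kinds, 54.2% (39.2 to 68.6%) had a MYC peak in clusters and 48.9% (38.3 to 59.6%) outside. Among distal regions, 3.23% in clusters and 1.29% outside lay within 1 kb of a tRNA gene. For snRNA genes the shares were 2.58% (20 regions) and 0.609% (24 regions). A snoRNA gene was that near to 3 of 774 distal regions in clusters and 17 of 3944 outside. A single row of genes, described next, held 13 of the 23 snRNA genes in clusters. RNU2-1 encodes U2, the spliceosomal RNA that pairs with the branch point, and lies in a row of snRNA genes next to CCDC200 on chromosome 17. The row formed 2 clusters, chr17:43233713-43252368 with RNU2-1 and chr17:43266539-43300882 without it, separated by 14.2 kb. All 13 annotated snRNA genes of these clusters lay under a region, and all 13 regions had both subunits. MED30 folds reached 15.2 and recovered MED30 pileups 466 fragments, and MYC was found at 4 of 5 and 6 of 8 regions, with a fold of up to 12.4. The snRNA genes have near-identical copies that can share reads, so the values of single copies are uncertain.

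The OSBP cluster (chr11:59537278-59566414) held 8 tRNA genes and 6 distal regions, and the clusters of AURKB and TRIM7 held 8 and 9 tRNA genes. MYC had a peak at 2, 5 and 3 regions of these clusters.

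Clusters beside gene-free stretches stood apart. In 12 clusters no protein-coding gene was overlapped and a gene-free stretch lay within 3 Mb, and 57 of their 61 regions had a MYC peak. In 10 of the 12 every region had one. The CWH43 cluster, 435 kb from such a stretch, had a MYC peak at all 16 regions, a no-doxycycline MYC peak at all 16 and a doxycycline MYC peak at 15. Its highest folds were 12.47 for MED17, 13.3 for MED30 and 14.4 for MYC, at the same region. The cluster nearest to LOC124903767 on chromosome 16 had 7 regions in all 5 lists. MED30 pileups could be recovered at 4 of them and reached 871 fragments, with a median local background of 142. There, peaks were found at the same places with all 3 antibodies and both fixations. Regions within 3 Mb of a gene-free stretch are left out wherever a value is marked as over 3 Mb from one.

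In the shMED30 line the lists were shorter, with 4621 MYC peaks after doxycycline and 7158 without it, against 14331 in the parental cells, and they reach higher q values, up to 0.0979 and 0.0993 against 0.0499. Of the 626 parental MYC peaks in cluster regions, 14.5% (11.9 to 17.5%) were also in the doxycycline list and 20.8% (17.7 to 24.2%) in the no-doxycycline list. For MYC peaks at Mediator regions outside clusters these shares were 11.5% (10.8 to 12.2%) and 20.3% (19.4 to 21.2%), and over all of them 11.7% and 20.4%. Seen from the other lists, all 84 doxycycline peaks in cluster regions and 120 of 125 no-doxycycline peaks overlapped a parental peak. At Mediator regions outside clusters, 95.3% of 945 and 95.5% of 1684 did. Those regions held only 21.2% of the 4450 doxycycline peaks and 24.3% of the 6923 no-doxycycline peaks on the chromosomes used. Cluster regions held 1.89% and 1.81%. Peaks of these lists at no Mediator region were not compared with the parental list.

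Over 3 Mb from gene-free stretches, 9.45% (7.14 to 12.2%) of cluster MYC peaks were in the doxycycline list and 14.7% (11.9 to 17.97%) in the no-doxycycline list, against 11.3% (10.6 to 12.0%) and 20.1% (19.2 to 21.0%) of those outside clusters. The intervals of the no-doxycycline shares did not overlap. Split into 3 bins by parental MYC fold, however, these shares were 2.08%, 12.6% and 38.5% in clusters from the lowest bin to the highest, against 4.01%, 11.3% and 44.3% outside. The intervals overlapped in every bin, and the middle bin was higher in clusters. Of the no-doxycycline peaks in cluster regions far from stretches, 26 of 82, or 31.7% (21.9 to 42.9%), were also in the doxycycline list. At Mediator regions outside clusters the share was 35.4% (33.0 to 37.8%). Line, depth and treatment differ between these lists, and with 1 library each they cannot be told apart. At least 1 region overlapped a doxycycline MYC peak in 53 clusters and a no-doxycycline MYC peak in 74.

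Among clusters named by the rule and away from gene-free stretches, those of LRRC14, KLF16 and SSC4D had MYC peaks in both shMED30 lists. LRRC14, on chromosome 8 with RECQL4, had 6 regions, 5 of them with a parental MYC peak, 2 with a doxycycline peak and 3 with a no-doxycycline peak. KLF16, a Krüppel-like factor, had 6 regions over 43.9 kb (chr19:1862196-1906090). A distal region there had a MYC fold of 13.4 and was found in both shMED30 lists. In the SSC4D cluster (chr7:76358012-76398016), 5 of 6 regions had a parental MYC peak, 1 a doxycycline peak and 2 a no-doxycycline peak. The peaks of the shMED30 lists lay at its last 2 regions (chr7:76392620-76393857 and chr7:76397556-76398016). The clusters of FOSB, JUNB, JUND, EPHA2, DUSP1, ID1, LMNA and TPRG1 had no MYC peak in either shMED30 list. Further clusters named by their number of regions, span or MYC-bound regions were those of MIDN, CRTC2, SYP, CYB5B and PRX, which held 7 regions each with 3 to 4 of them MYC-bound. Clusters near EPHA3 and DEFB115 lay beside gene-free stretches, with a MYC peak at all 7 and all 5 of their regions.

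By chromosome, 39 clusters lay on chromosome 19 and 34 on chromosome 17, which is 11.5% and 10.1% of the clusters, while these chromosomes held 7.39% and 6.49% of all merged regions and 7.26% and 5.85% of protein-coding genes. Chromosomes 4 and 18 held 2 clusters each.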

How the data were processed

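ChIP-seq was done in MIA PaCa-2 cells, with 1 library in each of 5 groups. Per the submitters' processing notes, reads were handled with Trim Galore, Bowtie2, deepTools and MACS2 on hg38. No source used here gives tool versions or says whether an input control entered. Each list was called on its own library. The authors' deposited values are a fold ratio at the summit, −log10 p and q values, and a score derived from the q value. They were used only to describe, order or filter peaks within a list.

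Peaks were read as deposited, on chromosomes 1 to 22 and X. MED17 and MED30 peaks sharing 1 bp were merged into 15155 regions, of which 1309 in 27 gene-free stretches were dropped. Genes came from RefSeq (GRCh38.p14). Summit pileup and local background were recovered where fold = (pileup + 1)/(background + 1) and a Poisson tail matched the deposited p within 0.002, for 99.6% to 99.8% of peaks in the parental lists. Read totals are not part of the lists, so depth is known only through these values. Merging, stitching and recovery were tested on simulated data. Python 3.11.15, pandas 2.3.3, numpy 2.4.6, scipy 1.17.1 and matplotlib 3.10.9 were used.

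A cluster took the name of the protein-coding gene it overlapped most, otherwise the nearest. Named were the 10 clusters with the most regions, the 10 longest, the 10 with the most MYC-bound regions, the 5 largest without MYC, and up to 4 genes per list. Some of the named clusters are not reported here. The clusters, gene lists and tests were chosen with earlier results of these data known.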

Additional observations from a re-analysis of the deposited data

How the results depend on the processing

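The rule's settings decided how many clusters there were. Against 338 clusters and 592 genes, a stitching gap of 25 kb gave 665 clusters and 1733 genes, and a gap of 5 kb gave 95 and 122. Peaks of MED17 alone gave 173 clusters and 358 genes, and of MED30 alone 184 and 307. Requiring at least 4 regions gave 123 clusters and 267 genes, at least 5 gave 60 and 151, and at least 3 distal regions gave 124 and 144. Leaving gene boundary regions out before stitching gave 118 clusters and 109 genes. Regions with both subunits alone gave 62 clusters and 129 genes, and the upper 50% of each list by fold gave 25 and 47. Counting genes within 50 kb gave 1185. The other 5 settings for clusters, and the other 4 for genes, stayed within 1.5 times these counts.

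The share of all cluster regions with a MYC peak, 49.5%, was 58.0% with MED17 alone, 43.7% with at least 3 distal regions, 41.8% without gene boundary regions, 69.3% with both subunits and 44.1% with an overlap of at least 50%. It was 53.0% at −log10 q of at least 3, 53.3% and 45.5% at gaps of 25 kb and 5 kb, and 74.1% for the upper 50% by fold. It lay below the share outside clusters in 14 of 15 settings, the exception being the upper 50% by fold. The distal share, 44.7%, was 57.6% with MED17 alone, 71.3% with both subunits, 39.1% with an overlap of at least 50%, 49.4% at −log10 q of at least 3, 81.8% for the upper 50% by fold and 40.0% away from gene-free stretches. It lay below the outside share in 7 settings and above it in 8. The gene boundary share, 57.2%, was 61.8% with MED30 alone, 52.5% with at least 3 distal regions, 66.3% with both subunits, 51.9% with an overlap of at least 50%, and 62.7% and 44.6% at gaps of 25 kb and 5 kb. It lay below the outside share in 14 of 14 settings.

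The share of clusters with a MYC peak, 85.2%, was 92.5% with MED17 alone, 78.2% with at least 3 distal regions, 89.4% and 93.3% with at least 4 and 5 regions, 74.6% without gene boundary regions, 95.2% with both subunits and 96.0% for the upper 50% by fold. The shares of cluster MYC peaks in the shMED30 lists moved to 9.45% (doxycycline) and 14.7% (no doxycycline) away from gene-free stretches, and to 26.6% and 33.8% at a gap of 5 kb. The causes of these moves were not tested. Leaving out places near gene-free stretches, or groups with small RNA genes, was chosen after seeing the data.

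With 1 library per group there was no replicate to leave out, and depth is known only through pileups. A peak list holds only sites past the authors' threshold. No paired analysis was possible because each group has 1 library and no test was run.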
